A study of Mus musculus with 2 samples.

Results

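Many mouse genes have annotated transcripts of the retained-intron or nonsense-mediated decay type. In a long-read RNA-seq experiment on hippocampus, 1397 of these were read in both libraries. A retained-intron transcript is annotated as alternatively spliced and holds intron sequence of other transcripts of its gene. A nonsense-mediated decay (NMD) transcript has a stop codon upstream of an exon-exon junction. The members were all annotated transcripts of these types, as typed in GENCODE release M21, that TALON classed as Known and that had at least 1 read in each library. They were 1074 retained-intron transcripts of 957 genes and 323 NMD transcripts of 298 genes, among 16070 Known transcripts with at least 1 read in each library, of which 13498 were protein-coding. The members were thus selected on their reads in each library, and their read numbers and shares are given as a description.

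Both libraries form 1 group. They came from 2-month-old female B6CASTF1/J mice, an F1 hybrid of C57BL/6J and CAST/EiJ, with no treatment named, and from tissue labelled as a layer of hippocampus. Each library started from 2 µg of RNA. They are numbered as biological replicates 1 and 2 but list the same donor identifier, and the labels do not say that they came from separate animals, so the spread between them may be technical. Replicate 1 held 836240 reads and replicate 2 held 752291. Of these, 543327 and 485134 were full-splice reads of annotated genes, meaning reads of Known models, of models that combine annotated splice sites in an unannotated way, or of models with a splice site the annotation lacks. The hippocampal marker Hpca had 1834 and 1613 reads and the glutamatergic neuron marker Slc17a7 had 996 and 881, while the choroid plexus markers Aqp1 and Otx2 had none and a further one, Ttr, had 271 and 131. Prox1, also among the hippocampal and neuronal markers, had only 11 and 19. Of the oligodendrocyte markers, Mbp had 1323 and 1354 and Mog 7 and 3, and the erythroid marker Hba-a1 had 128 and 171. The tissue is bulk, so fewer cells of a type and less RNA per cell cannot be told apart.

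Introns are removed from a pre-mRNA by the spliceosome, and an intron that stays in usually carries a stop codon in the reading frame. During translation, a stop codon well upstream of an exon-exon junction leaves the exon junction complex on the mRNA, which recruits the UPF proteins and leads to decay. SR proteins, the kinases that phosphorylate them and other RNA-binding proteins are textbook cases in which such exons and introns are built into the gene and limit its own protein. RNA with retained introns can also stay in the nucleus, out of reach of translation.

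The sequences that tell these transcripts from the coding ones are short. They are printed 5′ to 3′ on the transcript's strand from the mm10 reference, which is C57BL/6J, so CAST/EiJ alleles are not shown. The calcium/calmodulin-dependent kinase genes Camkk1 and Camk1 each have an annotated transcript that keeps 1 short intron between coding exons. Both introns have at most 300 bases and are shown whole, and their first in-frame stop overlaps the 5′ splice site. Capitals mark the bases at the 5′ and 3′ ends of the intron and the first stop codon in the frame of the coding transcript. The Camkk1-203 intron (chr11:73037269-73037537, plus strand) has 269 bases and the Camk1-202 intron (chr6:113339424-113339506, minus strand) has 83.
Camkk1-203: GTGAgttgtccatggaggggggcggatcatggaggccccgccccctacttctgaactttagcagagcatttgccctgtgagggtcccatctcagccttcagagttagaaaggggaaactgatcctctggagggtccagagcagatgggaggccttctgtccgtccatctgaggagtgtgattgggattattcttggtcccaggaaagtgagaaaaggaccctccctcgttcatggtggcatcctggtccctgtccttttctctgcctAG
Camk1-202: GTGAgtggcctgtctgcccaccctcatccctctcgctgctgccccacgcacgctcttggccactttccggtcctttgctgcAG

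Longer introns are shown by their first 70 bases, with the same capitals, for 2 transcripts that keep whole introns and have a high share or many reads. These starts were chosen after the values were seen. Clk1-212 keeps 2 neighbouring introns (chr1:58421013-58421082, minus strand for the upstream one and chr1:58420051-58420120, minus strand for the downstream one), and Ddx5-208 (chr11:106783889-106783958, minus strand) keeps 1.
Clk1-212, upstream intron: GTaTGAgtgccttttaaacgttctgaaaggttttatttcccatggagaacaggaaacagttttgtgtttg
Clk1-212, downstream intron: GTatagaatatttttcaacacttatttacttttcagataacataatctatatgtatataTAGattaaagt
Ddx5-208: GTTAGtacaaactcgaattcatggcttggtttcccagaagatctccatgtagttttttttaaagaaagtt
The stop came at base 4, 60 and 3 of these 3 introns, in the order printed.

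Of the NMD transcripts, 4 that add an exon to the coding transcript are shown from the start of that exon to the stop codon inside it, in capitals. The exons belong to Cbarp-212 (chr10:80136703-80136743, minus strand), Yaf2-202 (chr15:93317554-93317608, minus strand), Srsf9-205 (chr5:115328347-115328428, plus strand) and E2f6-204 (chr12:16813847-16813879, plus strand).
Cbarp-212: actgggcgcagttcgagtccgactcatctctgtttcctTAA
Yaf2-202: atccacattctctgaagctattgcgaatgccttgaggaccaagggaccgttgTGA
Srsf9-205: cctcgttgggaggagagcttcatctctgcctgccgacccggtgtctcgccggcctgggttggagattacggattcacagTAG
E2f6-204: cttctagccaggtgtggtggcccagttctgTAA
The whole exons measure 54, 70, 358 and 66 bases, so in the 54-base and 66-base exons the length alone would keep the frame and the stop codon ends it.

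Retained-intron members held 1.35% of the full-splice reads in replicate 1 (7318 reads, with an exact Clopper-Pearson 95% interval of 1.32 to 1.38%) and 1.28% in replicate 2 (6207 reads, 1.25 to 1.31%), a mean of 1.31% ± 0.0477 (SD, n = 2). NMD members held 0.351% (1905 reads, 0.335 to 0.367%) and 0.371% (1798 reads, 0.354 to 0.388%), a mean of 0.361% ± 0.0141. These intervals cover counting error only. A single transcript of Cox4i1, a subunit of cytochrome c oxidase, carried 19.3% and 13.2% of the retained-intron reads. Without it their mean share was 1.10%.

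Most members were read rarely. The median over both libraries was 4 reads for a retained-intron member and 5 for an NMD member, against 18 for a protein-coding transcript and 14 over all Known transcripts. At the threshold, 554 retained-intron and 148 NMD members had exactly 1 read in a library, with a median of 3 reads in all for each type. Just outside it, 1776 retained-intron and 351 NMD transcripts were read in 1 library alone, with a median of 1 read and at most 7 (Fbxw9-203) and 5 (Mrps11-205).

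Shares of a gene's full-splice reads were taken where the gene had at least 20 such reads in each library, which left 758 retained-intron and 199 NMD members and left out 316 and 124. The median share was 3.92% for retained-intron members (quartiles 1.84 and 8.44%) and 5.06% for NMD members (2.66 and 10.9%), against 61.8% for protein-coding and 45.6% for all Known transcripts under the same minimum. At least 10% of the gene in both libraries was reached by 125 retained-intron members (16.5%) and 40 NMD members (20.1%), against 69.2% of all Known transcripts. At least 50% in both was reached by 15 and 8 members. In 23 and 13 cases the member was the most-read full-splice model of its gene in both libraries, ties included. Shares of a gene given below are of its full-splice reads. Most of these transcripts thus had a small share, and a few had over 50% of the full-splice reads.

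Among retained-intron members the ribosomal protein gene Rpl5 was first, with Rpl5-204 at 92.9% in replicate 1 and 91.0% in replicate 2 (355 and 332 reads). Fxyd1-213, from a regulator of the sodium pump, followed with 76.3 and 81.7%, and the lowest mean share of the 10 was that of Rex1bd-207, at 65.9 and 61.0%. The NMD members were led by Kcna6-201, of a voltage-gated potassium channel, with 85.7 and 83.3%. Cyth2-203, of an Arf exchange factor, had 76.5 and 80.5% and Mobp-204, of a myelin protein made by oligodendrocytes, had 77.6 and 79.3%. Crebzf-205 was last of these 10, at 44.3 and 45.7%.

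**Figure D1:**
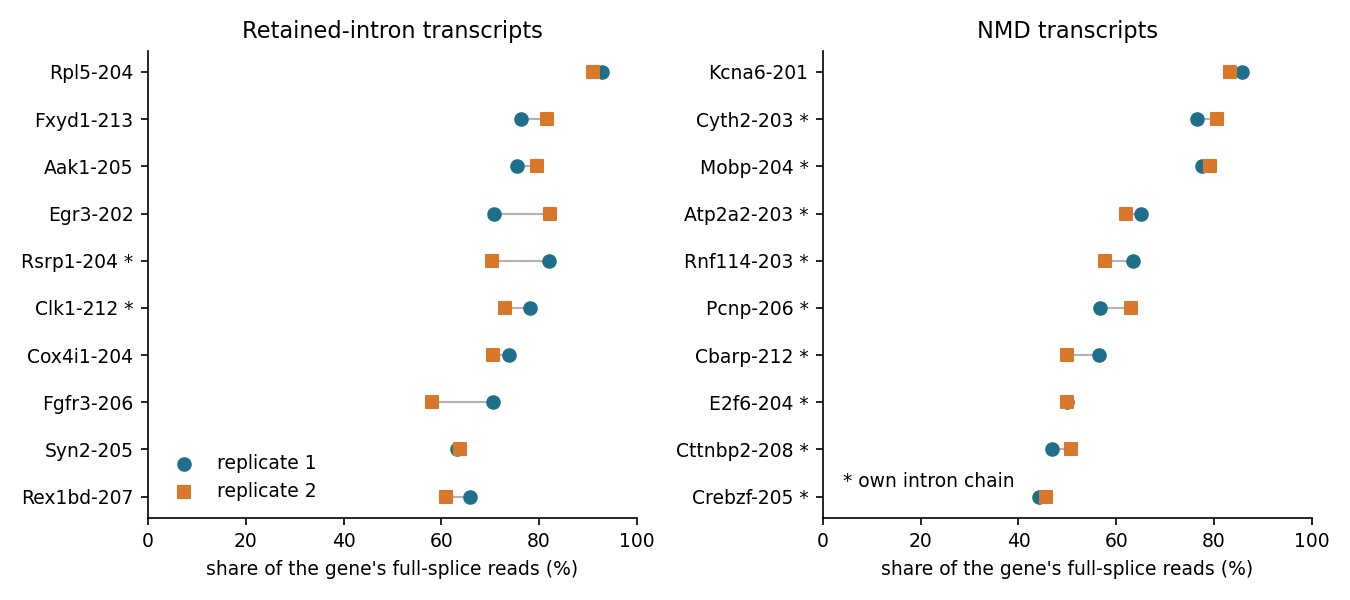
Share of the gene's full-splice reads in each library (horizontal axis, percent) for the 10 retained-intron and the 10 NMD members with the highest mean share, circles for replicate 1 and squares for replicate 2. An asterisk marks a chain of introns that is no part of an annotated coding chain, which holds for 2 of the retained-intron and 9 of the NMD members.

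What a read on these transcripts shows depends on the chain of introns, since TALON's Known models carry the annotation's structure and the files give no read ends. Each member's chain was therefore set against the annotated protein-coding chains of its gene. Of the 1074 retained-intron members, 663 (61.7%) had a chain that is a contiguous part of a coding chain. They held 63.0% and 60.8% of the retained-intron reads. In 446 (41.5%) the part ran to the last intron of the coding transcript, in 201 it began with the first, and in 16 it did neither. Another 212 had a single exon and 4 had the same chain as a coding transcript. Only 195 (18.2%), with 1211 and 1036 reads, had a chain of their own. By intron content, 442 (41.2%) of the retained-intron members hold a whole intron of a coding transcript in an exon, 614 hold part of one and 18 hold no intron base, while among the own-chain members 172 of 195 hold a whole intron. No junction separates reads of members without a chain of their own from partial or unspliced reads of other transcripts of the gene, and the part of such reads in the counts was not tested.

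Of the 23 retained-intron members that were the most-read model of their gene, 4 had a chain of their own and 6 a single exon. NMD members were different in this, with own chains in 12 of the 13 that led their gene. A chain of their own was found in 313 of 323 (96.9%), part of a coding chain in 4 and the same chain in 6. Among protein-coding transcripts 86.5% had a chain that is no part of another coding chain. All 10 members of either type with the same chain as a coding transcript had that coding transcript at 0 reads in both libraries. No junction sets such a pair apart, so the 0 reads do not show that the coding transcript was absent. The member's reads may include those of the coding transcript. Among these 10 members are Kcna6-201, Srsf2-202 and Syn2-205, of the vesicle protein synapsin II, which had 362 and 306 reads (63.3 and 63.9% of the gene).

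**Figure D2:**
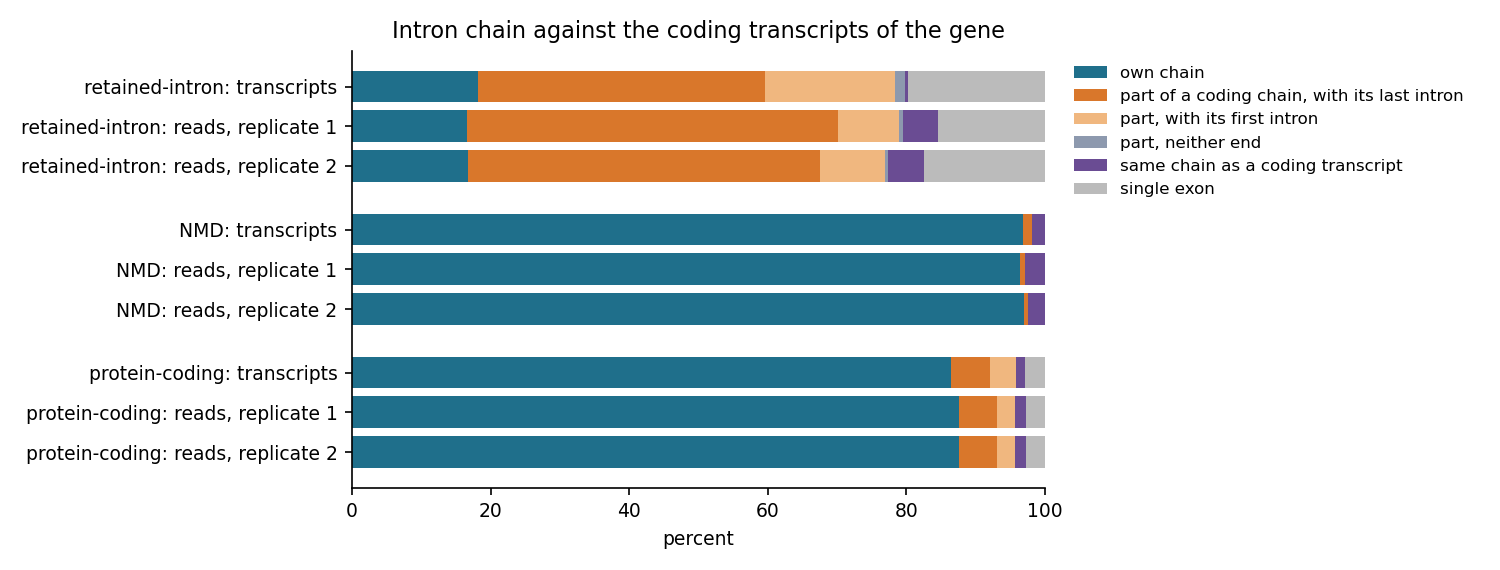
Percent of transcripts, and of their reads in each library (horizontal axis), by how the chain of introns relates to the annotated coding chains of the gene, for retained-intron, NMD and protein-coding transcripts with at least 1 read in each library. Own chains make up 18.2% of retained-intron and 96.9% of NMD members.

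The 2 most-read retained-intron members had chains that are part of a coding chain. Cox4i1-204 had 1410 and 821 reads, 73.9 and 70.6% of the gene, and its 3 exons follow the last introns of the 5-exon Cox4i1-201, which had 25.1 and 27.9%. Rpl5-204 likewise has 3 exons against 8 in Rpl5-201, which had 5.50 and 7.40%. Both short forms outnumbered the full coding form in each library. Fxyd1-213, Fgfr3-206 and Rex1bd-207 also end with the last introns of a coding chain. Aak1-205 (75.4 and 79.7% of the gene) and Egr3-202 (70.8 and 82.3%), of an endocytic kinase and an immediate early transcription factor, have a single exon each. For Aak1 the coding Aak1-202 held 5.26 and 6.78%, and over all reads of the gene, unspliced ones included, Aak1-205 held a mean of 44.3%. For Fgfr3-206, a whole 227-base intron of the coding transcript lies in its first exon and is removed in 14 and 25 full-splice reads. A first exon has no junction upstream, so the member's own 36 and 36 reads cannot show a spliced transcript that keeps it.

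Among retained-intron members with their own chain, the 3 highest shares belonged to genes on the lists of SR-like factors and their kinases. Rsrp1, an arginine and serine rich protein, had 228 and 181 reads of Rsrp1-204 (chromosome 4, 134923592 to 134927671), 82.0 and 70.4% of the gene (mean 76.2% ± 8.19). The coding Rsrp1-201 had 14.0 and 21.4%. Clk1, a kinase that phosphorylates SR proteins, had 25 and 19 reads of Clk1-212 (chromosome 1, 58410189 to 58424066), 78.1 and 73.1% (75.6% ± 3.57), against 6.25 and 15.4% for Clk1-201. In both genes the retained-intron form was the main one in each library. Ccnl2-205, of a cyclin found with SR proteins, had 58.9 and 55.8% (57.3% ± 2.18) and differs from Ccnl2-201 by a splice site. Srpk1-212, of a further SR protein kinase, had 23.5 and 24.0% (8 and 6 reads). Arglu1-204 had 32.6 and 18.3% (14 and 11 reads) and Rbm5-219 11.7 and 27.3% (7 and 15 reads), the widest gaps between libraries of those named here. Both gaps rest on few reads, and neither was called in the test between libraries given below. Over all reads of the gene the mean of Arglu1-204 was 15.5%, against 25.4% over full-splice reads.

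Retention itself was measured per intron, over all full-splice models. Reads that keep an intron were counted only with a junction on both sides of it. Reads that remove it were counted without this limit, which can lower the kept percent. Own-chain retained-intron members keep 203 introns of the gene's most-read coding transcript inside an internal exon, in 149 genes. Introns kept by NMD members are not among them. All 203 introns lie between coding exons, 200 have GT and AG ends, and 188 hold a stop in the frame of the coding transcript. Of these stops, 88 begin within the first 30 bases. Only 63 have a length that is a multiple of 3. Their median length was 270 bases (quartiles 135.5 and 648), against 471 for introns of read coding transcripts of the same genes and 1347 for those of all genes. Introns of at most 300 bases made up 53.7% of them, 40.2% in the same genes and 18.9% in all. These features come from the annotation and the members' choice, and carry no test.

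In 152 of the 203 introns each library had at least 20 reads that kept or removed it. As a mean of the 2 libraries, a median of 16.0% of those reads kept the intron (quartiles 7.16 and 29.0%, range 0.335 to 88.6%), 84 introns were kept by at least 10% in both libraries and 9 by at least 50%. Reads of unannotated models, whose structure comes from the reads, kept 136 of the 203 introns (67.0%) in each library and 171 in at least 1. Retention of these introns was therefore read in models other than the annotated retained-intron transcript as well.

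**Figure D3:**
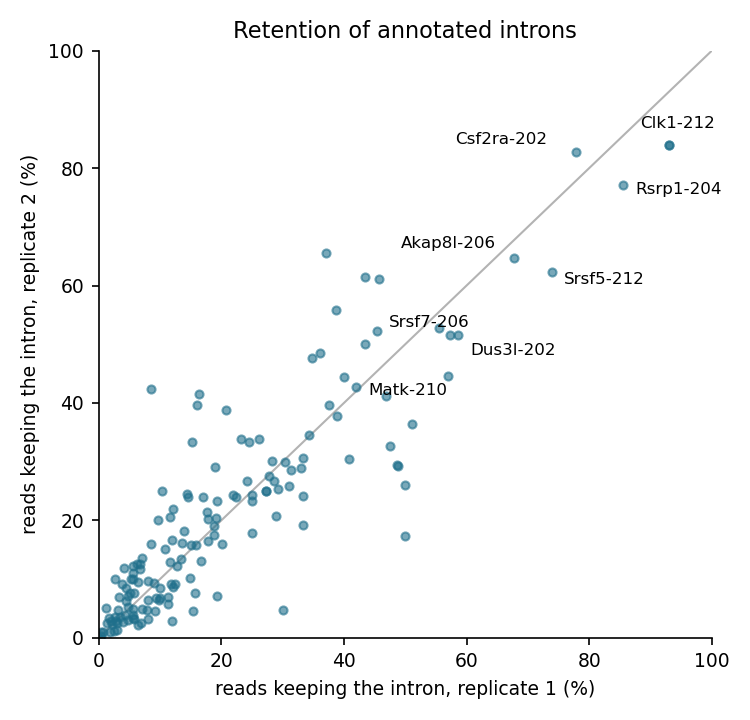
Percent of full-splice reads that keep each of 152 introns in replicate 1 (horizontal) and replicate 2 (vertical), among reads that keep or remove it. The introns are those of own-chain retained-intron members. Only the keeping reads had to have a junction on both sides of the intron, and each point is 1 intron. The line marks equal values, and both Clk1 introns share the point at 93.1 and 84.0%.

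Both Clk1 introns were kept by 27 of 29 reads in replicate 1 (93.1%) and 21 of 25 in replicate 2 (84.0%). The Rsrp1 intron was kept by 229 reads and removed by 39 in replicate 1 (85.4%), and by 185 against 55 in replicate 2 (77.1%). Of the 152 introns, 1 in Csf2ra-202 (77.8 and 82.8%) passed the Rsrp1 intron in replicate 2 and none passed the Clk1 introns. The other introns past 50% in both libraries lay in Srsf5, Akap8l, Dus3l and Atp11b, and these genes were picked after their values were seen. Srsf5-212, of an SR protein, had only 9 and 6 reads, 7.56 and 5.83% of the gene, but its intron was kept by 73.9 and 62.4% of reads, with 76 and 57 of the keeping reads on unannotated models. In the tyrosine kinase gene Matk, Matk-210, also picked after its values were seen, had 3 and 6 reads (1.08 and 2.60% of the gene) while its 79-base intron was kept by 42.0 and 42.8%. For these genes the annotated transcript's share gave much less than the retention of its intron. The Camkk1 intron printed above was kept by 13.5 and 16.2% of reads and the Camk1 intron by 9.84 and 6.38%.

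NMD members differed from the coding transcript mostly by a splice site or by 1 or more exons. Of the 303 with their own chain and a read coding partner, 139 (45.9%) used another splice site, 89 (29.4%) skipped an exon and 58 (19.1%) added one. An intron was retained in 14, the last exon differed in 14 and an intron was removed in 6, and a member may show several of these. In contrast, 164 of 183 retained-intron members compared in the same way (89.6%) kept an intron. The added exons numbered 61, with a median of 115 bases, and 37 had a length that is not a multiple of 3. In 46 of the 58 members the stop lay inside the added exon. Of 100 skipped exons, with a median of 108 bases, 90 had a length that is not a multiple of 3.

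The stop codon of the NMD members lay a median of 358 bases upstream of the last junction (quartiles 164 and 755, range 35 to 3279), and 321 of 322 with an annotated stop were at least 50 bases upstream. The exception was Arhgap23-204, at 35 bases, with 37.9 and 42.9% of its gene. Protein-coding transcripts had a median of -141, where the minus sign means that the stop follows the junction, and 41 of 12955 (0.316%) were at 50 or more. The annotation assigns the NMD type from this position, so the contrast describes the annotation. In 32 NMD members the stop is also that of a coding transcript of the gene. Atp2a2-203, Mobp-204, Kcna6-201 and Crebzf-205, all among the 10 highest shares, are of this kind. Of these, Kcna6-201 also has the same chain of introns as a coding transcript, so no junction sets it apart from that transcript.

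**Figure D4:**
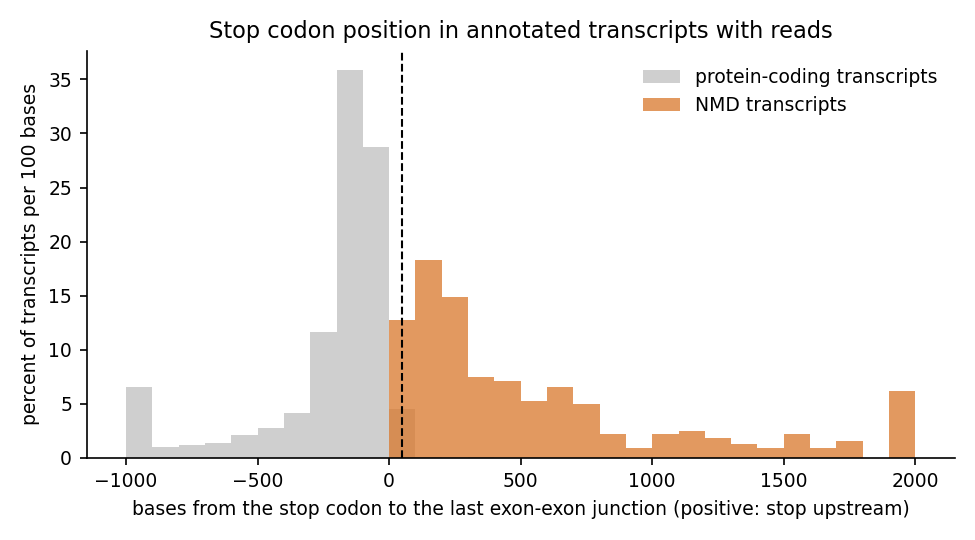
Bases from the stop codon to the last exon-exon junction (horizontal axis, positive where the stop is upstream) against the percent of transcripts per 100-base bin, for NMD and protein-coding transcripts with reads in both libraries. Values beyond -1000 and 2000 are drawn in the end bins, the dashed line stands at 50 bases, and NMD transcripts lie to its right apart from Arhgap23-204 at 35 (the bin from 0 to 100 straddles the line).

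The 2 NMD members with the most reads were those of Ddx5 and Atp2a2. Atp2a2, which encodes the calcium pump of the endoplasmic reticulum, had 147 and 140 reads of Atp2a2-203 (chromosome 5, 122453513 to 122502174), 65.0 and 61.9% of the gene, against 25.2 and 29.2% for Atp2a2-201. The 2 forms differ in the last exon. Ddx5, an RNA helicase of the spliceosome, had 135 and 159 reads of Ddx5-208, 25.1 and 29.4%, against 64.3 and 59.4% for the coding Ddx5-201. The Ddx5 intron was kept by 28.7 and 35.5% of reads over all full-splice models. Here the coding form stayed ahead in each library. Cbarp, a regulator of voltage-gated calcium channels, had 84 and 54 reads of Cbarp-212, 56.4 and 50%, and its exon-lacking partner Cbarp-201 had 6.04 and 6.48%. Over Known reads alone Cbarp-212 held a mean of 86.4%. Yaf2-202, of a Polycomb-associated factor, had 40.1 and 40.3%. E2f6-204, of a repressor of the E2F family, had 50% in both (15 and 13 reads). All 3 carry the added exon with the stop shown above.

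Khdrbs3, a neuronal splicing regulator, had 39 and 61 reads of Khdrbs3-204, 14.9 and 22.8%, with another last exon than Khdrbs3-201. Cttnbp2-208, of a dendritic spine protein, had 46.9 and 50.8%, while the most-read coding transcript of the gene, Cttnbp2-207, had 0 and 3.08%. Over all reads of the gene Cttnbp2-208 held a mean of 31.8%. Rnf114-203, of a ubiquitin ligase, skips an exon and had 63.5 and 57.6%. In Cttnbp2 and Rnf114 the NMD form had more reads than the named coding form in each library.

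The genes were also read by list, and the lists were chosen with earlier results of these data known, so their counts carry no test. Of the 4819 genes that reached 20 full-splice reads in both libraries, 797 (16.5%) had a member and 155 (3.22%) had a member at 10% or more in both. In the SR and SR-like list 12 of 18 genes (66.7%) had a member and 5 (27.8%) had one at 10% or more, namely Rsrp1, Ccnl2, Arglu1, Srsf9 and Srrm1, the last named after its values were seen. Srsf9-205, of an SR protein, has 6 exons against 4 in Srsf9-201, and 1 added exon holds the stop. It held 23.9 and 20.0%, against 15.9 and 15.6% for Srsf9-201. Over the Known reads of the gene alone its mean share was 58.1%, against 21.9% over full-splice reads. Among 8 genes of CDC-like and related kinases, 3 had a member and 2 reached 10%, Clk1 and Srpk1. Of 29 core spliceosome genes, 10 had a member and 6 reached 10%, with Prpf31-205 at 22.2 and 20.0% (10 and 7 reads). Annotation differed as well: 94.4% of these SR genes have an annotated transcript of either type, 82.8% of the spliceosome genes and 68.0% of all 4819. A member needs only 1 read in each library, which a gene with more reads reaches more easily, and the lists were not matched for reads.

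Members in genes of other pathways mostly had low shares, with Rpl5, Cox4i1 and Syn2 as exceptions. In genes with enough reads the median was 3.14% on the ribosomal, 1.83% on the respiratory chain and 1.49% on the synaptic vesicle list. Ribosomal protein genes had a member in 27 of 70 (38.6%), with 2 at 10% or more, Rpl5 among them, and respiratory chain genes in 28 of 79 (35.4%), with 1, Cox4i1. Of the 31 ribosomal and 36 respiratory members, 7 and 8 had their own chain, against 14 of 21 in the SR list. Ribosomal protein genes and Cox4i1 have processed pseudogenes, and how reads that fit a gene and its copy were assigned is not stated, so these values are uncertain. Among hnRNP genes 5 of 22 had a member and none reached 10% in both libraries. Tardbp-201, of the RNA-binding protein TDP-43, came nearest with 12.1 and 9.38%, on only 4 and 3 reads. Over all reads of the gene its mean was 6.92%. Glutamate and GABA receptor and scaffold genes had a member in 3 of 20, among them Gria2-204 at 0.955 and 0.968%. Synaptic vesicle genes had one in 6 of 23, with only Syn2 past 10%. None of the 4 NMD factor genes with enough reads had a member, and only 2 of the 4 have an annotated transcript of either type.

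**Figure D5:**
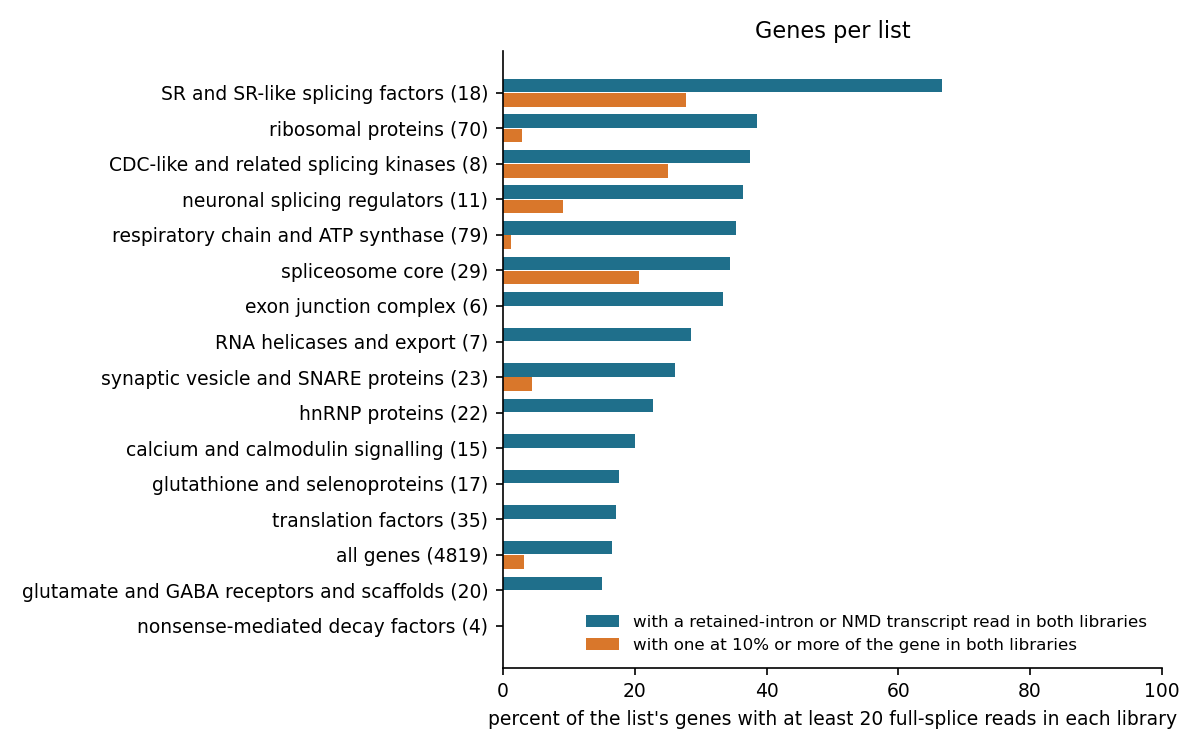
Percent of each list's genes (horizontal axis) that have a retained-intron or NMD transcript read in both libraries (upper bar) and one at 10% or more of the gene in both (lower bar), among genes that reached 20 full-splice reads in both libraries, whose number stands in brackets. The SR list stands at 66.7% and 27.8%, all genes at 16.5% and 3.22%.

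Shares were then compared between the libraries, with a two-sided Fisher's exact test for each Known transcript and Benjamini-Hochberg adjustment over all 10324 tested. The test sets the reads of 1 library against the other and no condition against another. Over all Known transcripts 3 were called at an adjusted p under 0.05 (0.0291%), and 282 had an unadjusted p under 0.05. Of the 957 members tested none was called, and 15 had an unadjusted p under 0.05 (14 of 758 retained-intron and 1 of 199 NMD members). Members had to be read in each library, which the 10324 did not. Among the 7954 tested that were, 3 were called and 247 had an unadjusted p under 0.05, and as the members were selected on the reads compared, nothing is read from these rates. The chi-square test called none either, with 12 at an unadjusted p under 0.05. The smallest adjusted p of a member was 0.686 in the Fisher's exact test, for Atp6v1g2-204, of a subunit of the vesicular proton pump, at 1.97 and 6.47% of its gene. The median absolute difference between libraries was 1.51 percentage points for retained-intron members, 1.72 for NMD members and 2.90 for all Known transcripts. These differences are not scaled to the shares, whose medians were 3.92, 5.06 and 45.6%, so they do not rank the 3 groups by reproducibility. With a median of 4 or 5 reads per member over both libraries, differences in thinly read genes, large ones included, could be missed, and a p above the threshold does not show equal shares. The other 440 members were not tested, for lack of reads.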

How the data were processed

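Per the text files deposited with each library, the authors derived read counts per transcript model from filtered alignments to mm10 with GENCODE M21, and per the file headers the structures are from TALON. These deposited counts are whole numbers, are not normalized, and cover only models with a read. Other deposited values give coordinates, exon numbers and lengths. For the aligner, platform and tool versions, nothing is stated in the labels or files.

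Reads of Known models were joined to the annotation by transcript identifier. Shares divide a member's reads by the gene's full-splice reads per library, in genes with at least 20 in each. Introns and stops were read from GENCODE M21 and the mm10 genome, with Python 3.11.15, pandas 2.3.3, numpy 2.4.6 and scipy 1.17.1. Reading frames follow the gene's most-read coding transcript. Means are given ± SD over 2 libraries, and the share of each type in a library with an exact 95% interval. Shares of single members carry no interval. The library test was tested on simulated data.

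Members and the 15 gene lists were chosen with earlier results of these data known. Named members were, per type, the 12 with the most reads, the 10 with the highest mean share, up to 4 per list and up to 10 called between libraries. Alternatives were other read and gene minimums, other denominators, own chains only, each library alone and a chi-square test. A few items are not reported here.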

Additional observations from a re-analysis of the deposited data

How the results depend on the processing

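With at least 5 reads in each library, 187 retained-intron and 61 NMD members were left. Each library alone gave 1962 retained-intron members, and 498 to 499 NMD members. Own chains only left 195 retained-intron members with 0.218% of full-splice reads, a median share of 4.48% and 26 at 10% or more of the gene. In 2 settings chosen after seeing the data, 21 retained-intron members at 10% or more kept a whole intron inside an internal exon, and the retained-intron share without Cox4i1-204 was 1.10%. Over Known reads the 2 types held 1.55% and 0.425%, over all reads of annotated genes 1.01% and 0.278%, and in each library alone 1.28 to 1.35% and 0.351 to 0.371%.

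Median shares depended on the gene minimum. For retained-intron members they were 5.01% with 10 reads, 2.29% with 50 and 6.35% with none, and for NMD members 7.42%, 3.35% and 9.65%. Members at 10% or more numbered 194, 50 and 331, and 73, 19 and 120. Over Known reads of the gene the medians were 5.39% and 6.79%, over all its reads 3.21% and 4.36%, and in each library alone 3.57 to 3.70% and 4.67 to 5.56%, with 154 to 177 and 55 to 55 members at 10% or more. Of 91 named members, 15 had a share over 1.5 times lower over all reads of the gene, and 13 had one over 1.5 times higher over its Known reads. No member was called between libraries under any setting run. TMM scaling was not run, since it does not enter a share within a library. No paired analysis was possible because there is 1 group. Low read numbers limit most single members: 541 of 1074 and 146 of 323 had 4 reads or fewer in all.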
